A study of Caenorhabditis elegans with 2 samples.

Results

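The genes atx-2, pqn-59 and gtbp-1 of the nematode Caenorhabditis elegans encode the worm relatives of 3 core stress granule proteins, and they make up 3 of the 46926 genes in the Ensembl annotation. They were chosen by name, with the region lists already known: atx-2 held the strongest peak of the study and pqn-59 held another peak, so the signals and ranks of these peaks are given as a description and were not tested. The study used chromatin immunoprecipitation with sequencing (ChIP-seq), which maps where a protein sits on DNA. The protein was NHR-12, a nuclear hormone receptor, tagged with enhanced green fluorescent protein (eGFP). The animals were mixed-stage embryos of both sexes, taken whole, from strain OP318, which carries the transgene wgIs318 and the mutation unc-119(ed3). All samples form 1 group with 2 biological replicates, and the labels name no other treatment or genotype. The labelled control experiment was not analysed here. Embryos were sampled whole, so a strong signal in a few cells and a weaker one in many cannot be told apart. The lists hold no expression values, so the labelled stage could not be checked against marker genes.

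Stress granules are condensates of messenger RNA and RNA-binding proteins that form in the cytoplasm when translation stalls under heat, oxidative or other stress. Ataxin-2 (ATX-2 in the worm) binds poly(A)-binding protein and acts in translation, and in the worm it is also known for roles in germline development and embryonic cell division. GTBP-1 is the worm counterpart of the mammalian granule nucleators G3BP1 and G3BP2, and PQN-59 is the counterpart of UBAP2L. The pqn genes are named for a prion-like stretch rich in glutamine and asparagine.

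The DNA before the starts of atx-2 and gtbp-1 is shown because these are the extremes of the set, the start with the strongest peak and the start with no region near it. Both stretches run from 250 bases before the annotated gene start to 50 bases from it, 5′ to 3′ along the gene, and were read from the RefSeq copy of WBcel235, the assembly also named ce11. In the first, which spans chrIII:10461139-10461438 on the plus strand, the capitals mark the thresholded peak (bases 138 to 261, with the summit at base 171). In the second, which spans chrIV:10128907-10129206 on the minus strand, the capitals mark the hexamer that ends just before the gene start.
atx-2: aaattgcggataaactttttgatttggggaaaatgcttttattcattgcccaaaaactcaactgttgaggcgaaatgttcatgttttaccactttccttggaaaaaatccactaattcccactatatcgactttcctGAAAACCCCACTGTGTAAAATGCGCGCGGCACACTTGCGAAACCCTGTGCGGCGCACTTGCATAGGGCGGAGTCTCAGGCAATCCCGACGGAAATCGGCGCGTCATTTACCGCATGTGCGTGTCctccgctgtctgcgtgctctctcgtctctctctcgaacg
gtbp-1: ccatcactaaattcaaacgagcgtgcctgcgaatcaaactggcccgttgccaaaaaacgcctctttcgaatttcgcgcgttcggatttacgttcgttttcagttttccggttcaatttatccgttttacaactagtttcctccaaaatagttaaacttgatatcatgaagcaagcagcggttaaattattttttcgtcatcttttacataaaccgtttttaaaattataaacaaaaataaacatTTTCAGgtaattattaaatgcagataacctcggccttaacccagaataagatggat
The capitals of atx-2 hold 58.9% G and C. Its whole stretch holds 48.3%, against a median of 34.3% over the same 300 bp stretch of 19973 protein-coding genes. The last 11 bases in capitals already belong to the annotated atx-2 transcript that starts furthest upstream, which begins at its start codon.

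The peak at atx-2 (WBGene00000231, chromosome III, 10461389 to 10468051, plus strand) covered 10461276 to 10461399, and its summit lay at 10461309, 80 bp upstream of the gene start. The strength of a region is its deposited signal, whose scale is not stated, so values were read within a list only. In the list called on both replicates together the atx-2 region had a signal of 113, in replicate 1 68.1 and in replicate 2 46.8. These values ranked 1 of 28574 pooled candidates, 1 of 30000 regions in replicate 1 and 3 of 30000 in replicate 2. The median signals of those lists were 10.4, 6.83 and 5.71. In replicate 2 the regions ahead of it were nearest to tasp-1, which encodes a taspase (signal 48.9), and to Y48G10A.3 (signal 47.9). Their summits lay at -45 bp from the tasp-1 start and at -1476 bp from the Y48G10A.3 start (negative is upstream). The atx-2 region was thus among the best 3 in each replicate taken separately.

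The pqn-59 peak was of middling strength and differed in rank between the replicates. Its gene (WBGene00004143) lies on chromosome I at 379071 to 381902 on the minus strand. The peak covered 381560 to 381915, with a signal of 39.97 in the pooled list, 27.4 in replicate 1 and 12.97 in replicate 2. The corresponding ranks were 116, 74 and 610. With ranks up to 249 counted as the best regions, the number of thresholded peaks, the pqn-59 region was inside this limit in replicate 1 and outside it in replicate 2. Replicate 2 held a region there all the same, with its summit at 381738, the very base of the pooled summit.

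No thresholded peak was found near gtbp-1 (WBGene00010677, chromosome IV, 10126749 to 10128956, minus strand). Its start window, here from 1000 bp upstream to 200 bp downstream of a gene start, held no region in the pooled list, in replicate 1 or in replicate 2. The nearest pooled candidate had its summit 734 bp inside the gene, in a coding exon (signal 9.78, rank 17073, below the list's median signal), and neither replicate had a region overlapping the gene body. The nearest summits to the gtbp-1 start lay 3566 bp upstream in replicate 1 (rank 7959) and 3767 bp upstream in replicate 2 (rank 25854). The lists name only regions that passed the caller, so this says that no region was listed, not that the receptor was absent. An empty start was common: 8399 of 19973 protein-coding genes (42.1%) had no candidate in the start window in any of the 3 candidate lists.

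As background for the set, 2 of the 3 genes had a thresholded peak in the start window, against 0.946% of protein-coding genes (189 of 19973), a contrast that the choice of the genes fixes and from which nothing is read. Among pooled candidates, 0.871% were thresholded peaks (249 of 28574). A pooled candidate of any rank lay in the window of the same 2 genes, and in that of 35.7% of protein-coding genes. Among the 249 best regions of replicate 1 alone, atx-2 and pqn-59 were both represented (background 0.941% of protein-coding genes), and among those of replicate 2 alone only atx-2 was (background 0.796%). The weakest thresholded peak had a signal of 30.7 and the best candidate below it 30.6, so the pqn-59 peak stood clear of that edge in the pooled list.

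**Figure D1:**
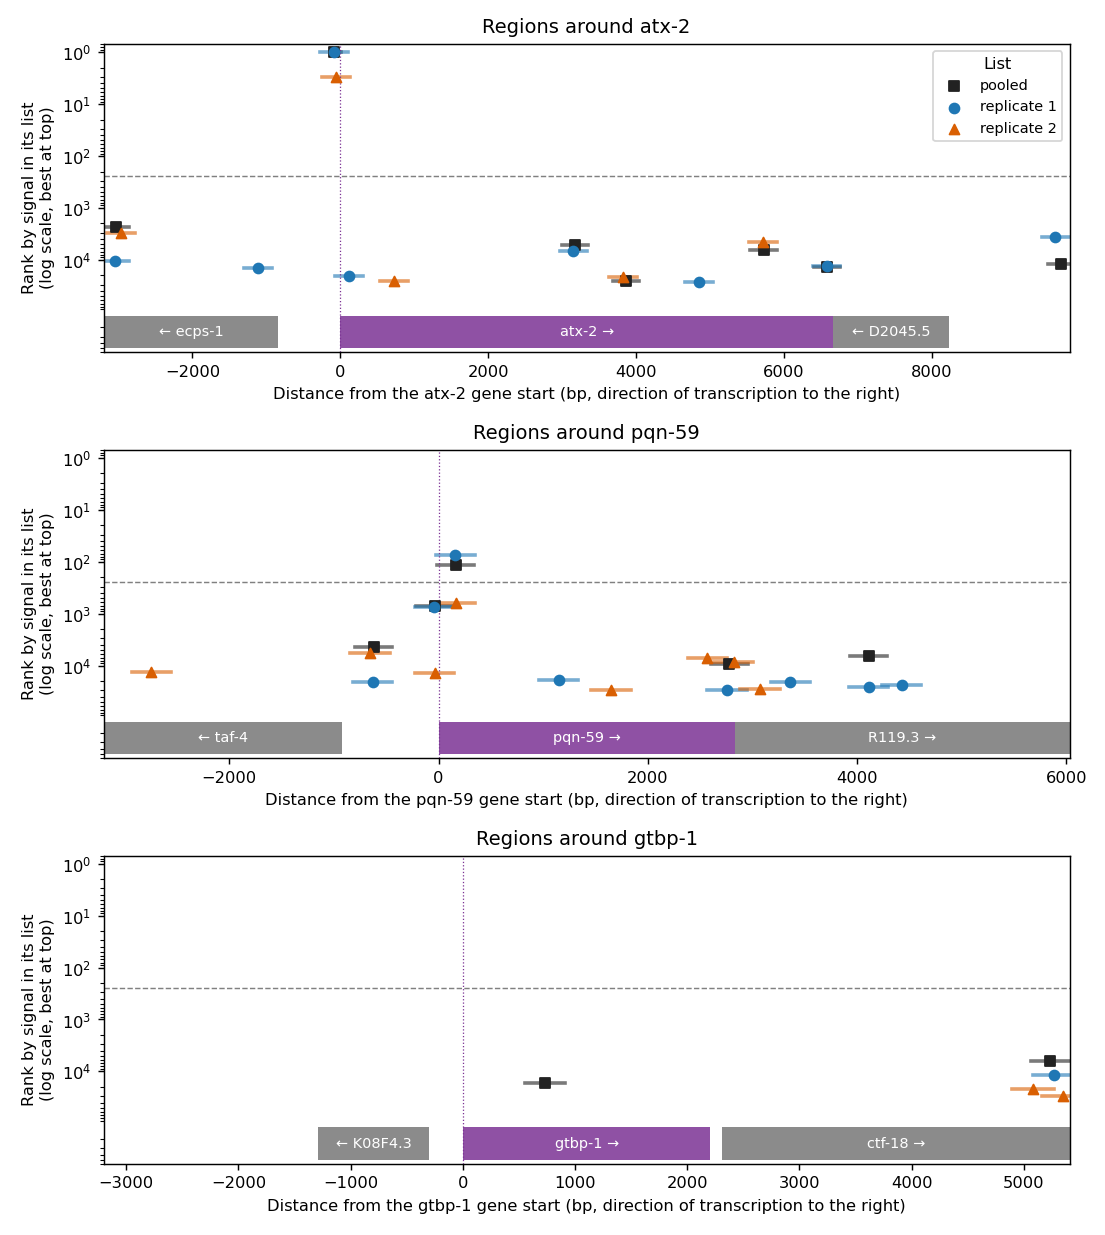
Regions of the pooled list (squares), replicate 1 (circles) and replicate 2 (triangles) around each gene, by distance of the summit from the gene start in bp (x axis) and rank by signal within the list (y axis, log scale, best at the top). Horizontal bars give each region's width, boxes the gene (purple) and its nearest protein-coding neighbours (grey), arrows the direction of transcription, and the dashed line rank 249. At atx-2 all 3 lists reach rank 3 or better just upstream of the start, at pqn-59 they lie at ranks 74 to 610 just inside the gene, and at gtbp-1 the nearest summit lies 734 bp inside the gene, in the pooled list alone.

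The summit at atx-2 stood between the starts of 2 genes that point away from each other. The neighbour is ecps-1, which encodes the worm homologue of a proteasome adaptor and scaffold protein, and its start lies 838 bp from that of atx-2. The summit was 80 bp from the atx-2 start and 758 bp upstream of the ecps-1 start, so the start window of ecps-1 also held it. No other gene start lay between them. The replicate summits lay 81 bp (replicate 1) and 63 bp (replicate 2) upstream of atx-2, 18 bp apart. Over the 248 thresholded peaks with a region in both replicates, the median gap between replicate summits was 35 bp (quartiles 9.75 and 73.5), and 95 peaks had a smaller gap than atx-2.

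Which atx-2 transcript the peak belongs to depends on the annotated 5′ ends. Of the 4 annotated transcripts, D2045.1d starts 80 bp downstream of the summit, D2045.1a 319 bp and D2045.1c 404 bp downstream. D2045.1d and D2045.1c begin at a start codon with no 5′ UTR, so their annotated starts need not be where transcription starts. The short transcript D2045.1b starts 3147 bp downstream of the summit, inside the gene. Close to that inner start lay a much weaker region of the pooled list (summit 102 bp into the transcript, in a coding exon, signal 14.0, rank 5172). Replicate 1 had a region there too (summit 85 bp into the transcript, signal 8.87, rank 6900), and replicate 2 listed none.

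The other regions within 3 kb of atx-2 were weak. The pooled list had 7 regions there including the peak, replicate 1 had 8 and replicate 2 had 5. Apart from the peak, pooled signals ran from 8.14 to 17.0 (ranks 26058 to 2309). The best of them lay inside ecps-1, and the others lay in an intron, in coding exons and in the 3′ UTR of atx-2, and 105 bp upstream of cul-1, a cullin gene downstream of it. Per kb, the pooled list held 0.553 regions around atx-2 and 0.566 around pqn-59, more than around 87.5% and 88.5% of protein-coding genes (median 0.282). Around gtbp-1 it held 0.244 per kb, more than around 39.4% of them.

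The atx-2 peak was one of 3 narrow regions among the 28574 pooled candidates, at 124 bp where all but 3 were 356 bp wide. The other narrow regions ranked 2 and 10 (103 and 118 bp). In the separate replicate lists the atx-2 region had the full standard width of 376 bp. The midpoint of the narrow region lay 52 bp upstream of the start, 28 bp nearer than its summit.

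At pqn-59 the summit lay 164 bp downstream of the gene start, inside the gene. The peak of 356 bp covered 13 bp of upstream sequence, the whole of exon 1 (112 bp) and 231 bp of the first intron, and the summit fell in that intron. The intron is 320 bp long, and the other 4 introns of the gene are 47 to 54 bp long. Both replicates placed the summit within 2 bp of the same base (162 and 164 bp downstream), and 14 of 248 peaks had a smaller gap between replicates. Of the 134 thresholded peaks with a protein-coding start window around the summit, 12 (8.96%) had the summit downstream of the nearest such start. At least 164 bp downstream lay 2 of them, pqn-59 included. The window ends 200 bp downstream, so summits farther inside a gene were left out. These counts therefore do not show how unusual the pqn-59 position is. The median over all 134 was 178.5 bp upstream, and 27 (20.1%) lay within 100 bp upstream, as at atx-2.

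A second, weaker region overlapped the pqn-59 peak at the start itself in every list. Its summit lay 35 bp upstream in the pooled list (signal 21.98, rank 724), 39 bp upstream in replicate 1 (signal 14.7, rank 734) and 37 bp upstream in replicate 2 (signal 5.87, rank 14068). The position was thus nearly the same in all lists, while the rank was far lower in replicate 2. Each of these summits was about as near to the main summit as the lists allow: the smallest gap between neighbouring summits was 199 bp in the pooled list and in both replicates. Whether the second region is a binding site of its own or a shoulder of the peak was not tested. The same arrangement occurred at atx-2 in replicate 1 alone, where a region of rank 20347 had its summit 119 bp inside the gene.

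The gene on the other side of pqn-59 is taf-4, which encodes a subunit of the general transcription factor TFIID and is transcribed away from pqn-59, with the starts 924 bp apart. The thresholded summit was 1088 bp upstream of the taf-4 start, outside its start window, and the weaker region was 889 bp upstream of it, inside the window. Another pooled region lay between the genes, 619 bp upstream of pqn-59 and 305 bp upstream of taf-4 (signal 14.7, rank 4289). It ranked 20581 in replicate 1 (signal 5.94) and 5733 in replicate 2 (signal 7.91). At its far end pqn-59 overlaps R119.3, which is read in the same direction, and a pooled candidate lay in the 3′ UTR of pqn-59, 48 bp upstream of R119.3 (signal 12.04, rank 9128).

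The start of gtbp-1 is also part of a pair that points apart. The start of K08F4.3 lies 301 bp away, and the annotation has a short non-coding gene, K08F4.14, between them. All 3 genes of the set thus had a neighbouring protein-coding start on the opposite strand within 1 kb upstream, at 301, 838 and 924 bp. The share of all protein-coding genes with such a neighbour was not counted, so nothing is read from this. On the other side, in ctf-18, which encodes a subunit of a clamp loader for chromosome cohesion, the pooled list had a region of rank 6322 (signal 13.3). Replicate 1 had 1 region there (rank 11791) and replicate 2 had 2 (ranks 22059 and 29453).

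The sequences at the starts differed between the genes in composition and in what lay just before them. At both pqn-59 and gtbp-1 the bases TTTCAG, the worm consensus of a splice acceptor, ended exactly before the annotated start, as in 2447 of 19973 protein-coding genes (12.3%). At atx-2 they did not. In worms many messages receive their 5′ end by trans-splicing at such a hexamer, and an annotated start can then lie downstream of where transcription begins. Whether this applies to these genes was not tested. The stretch from 250 bases before the start to 50 bases from it held 48.3% G and C at atx-2, more than in 98.3% of protein-coding genes, 36.0% at pqn-59 and 35.7% at gtbp-1. In windows of 100 bp each side of the summit, atx-2 held 51.7% and pqn-59 44.8%, against a median of 46.8% for the thresholded peaks and 37.8% for all pooled candidates.

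On both strands of those summit windows, 11 motifs were searched. The atx-2 window held 1 match each to GGGCGG, a GC box, to TTCNNGAA, the core of a heat shock element, and to TTTCAG. The TTTCAG match overlapped the heat shock match, and TTTCAG occurred in 12.4% of peaks and 32.3% of candidates. The GC box occurred in 18.5% of thresholded peaks (46 of 249), 4.42% of pooled candidates and 7.83% of protein-coding start stretches. The pqn-59 window held 1 match to CACGTG, an E-box, found in 5.22% of peaks and 4.33% of candidates, 2 matches to TTCNNGAA, found in 6.43% of peaks and 12.3% of candidates, and 2 to TTTCAG, of which 1 overlapped a heat shock match. Neither window held AGGTCA, a half-site of many nuclear receptors, which was present in 5.22% of peaks and 5.70% of candidates. Neither held CTGCGTCT (12.9% of peaks, 2.39% of candidates) or the GA repeat GAGAGA (40.96% of peaks, 14.5% of candidates). The search also found no TATA box (TATAAA), no GATA site (TGATAA), no FOXO element (TTGTTTAC) and no run of T (TTTTTTTT) in either window. In the 300 bp stretches, atx-2 also had 4 matches to GAGAGA, 3 of them overlapping, all downstream of the annotated start and outside the summit window. The pqn-59 stretch did hold AGGTCA, 106 bases before the start, as did 8.27% of protein-coding stretches. It also held TGATAA 170 bases before the start, TATAAA on the opposite strand 18 bases before it, and 2 matches to TTTCAG. The gtbp-1 stretch held TATAAA, 25 bases before the start, and 2 matches to TTTCAG, and no other searched motif. These strings are common: 37.9% of protein-coding stretches held TATAAA, 51.7% TTTCAG, 30.2% TGATAA and 21.8% GAGAGA. A match is a run of letters, and whether any factor binds it was not measured.

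Among thresholded peaks with a protein-coding start window around the summit, those whose replicate ranks were most like the ranks of atx-2 lay at the shared upstream region of C16C10.4 and rnf-121, which encodes a RING finger protein, and at nspc-17. Likeness was the Euclidean distance of log10 ranks over the 2 replicates. The peak of C16C10.4 and rnf-121 ranked 4 in replicate 1 and 10 in replicate 2 (distance 0.797), and that of nspc-17 ranked 5 and 13 (0.946). For pqn-59 the closest of these were wrt-3, a hedgehog-related gene (ranks 72 and 470, distance 0.114), and the pair dvc-1, a protease of DNA repair, and ima-1, an importin alpha gene, which share a peak (ranks 90 and 422, distance 0.181). Both of these peaks were inside the 249 best regions of replicate 1 and outside those of replicate 2. They were chosen for ranks near those of pqn-59, so this is no separate result. Of all 249 thresholded peaks, 177 were in the best regions of replicate 1, 149 in those of replicate 2 and 100 in both.

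**Figure D2:**
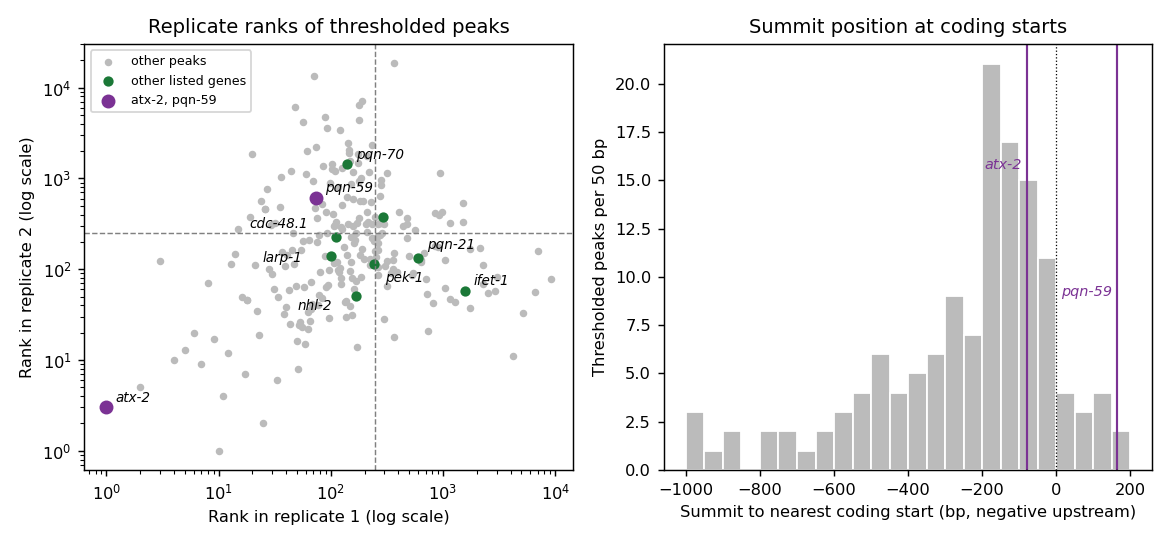
Left, rank in replicate 1 (x axis, log scale) against rank in replicate 2 (y axis, log scale) for the 248 thresholded peaks with a region in both, with atx-2 and pqn-59 in purple, peaks of other listed genes in green, and rank 249 dashed. Right, thresholded peaks per 50 bp by distance from the summit to the nearest protein-coding start in bp (negative upstream, 134 peaks), with lines at atx-2 (80 bp upstream) and pqn-59 (164 bp downstream). The atx-2 peak sits at the best corner on the left and just downstream of the most frequent positions on the right. The pqn-59 peak sits above the dashed line on the left and near the downstream edge on the right. That edge is the limit of the start window, 200 bp downstream, beyond which no summit was counted.

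Other genes of stress granules were looked up in a list of 32 RNA-binding, translation and clearance factors, of which 31 matched the annotation. A thresholded peak lay in the start window of 5 (16.1%), among them atx-2 and pqn-59, whose peaks were known when they were chosen. Without the 3 genes named first it was 3 of 28 (10.7%, exact 95% interval 2.27 to 28.2), among them cdc-48.1 and larp-1, beside 0.946% of protein-coding genes. The list was also drawn up with results of these data known, so the share is a description. At cdc-48.1, an AAA ATPase that takes protein assemblies apart, the summit lay 179 bp upstream (pooled signal 44.3, ranks 84 pooled, 112 in replicate 1 and 226 in replicate 2). At larp-1, a La-related protein gene, it lay 646 bp upstream (signal 44.1, ranks 88, 101 and 139) but nearer to wip-1 (343 bp). Both cdc-48.1 and larp-1 were in the best regions of each replicate. Counted over the 249 best regions of 1 replicate, the list had 4 genes without replicate 2 and 3 without replicate 1.

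The remaining granule genes had weaker candidates or none. Of the 31 genes, 21 (67.7%) had a pooled candidate in the window, beside 35.7% of protein-coding genes, with a median best rank of 5930, against 12053 over the 7138 protein-coding genes with one. Without atx-2 and pqn-59 that median was 6150 over 19 genes. The best of these below the thresholded peaks was at sqd-1, an RNA-binding protein gene (338 bp upstream, signal 21.8, rank 757, replicate ranks 1430 and 1572). The poly(A)-binding protein genes pab-1 and pab-2, whose products partner ataxin-2 in other species, had no thresholded peak: pab-2 had a candidate 88 bp upstream (rank 8664), and pab-1 had none in the pooled list. The granule marker tiar-1 had none in the pooled list either. In addition to gtbp-1, the genes inf-1, ife-1, ife-5 and hrpk-1 had no region in the window in any list, together 16.1% of the list beside 42.1% of protein-coding genes.

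Lists for neighbouring RNA granules were described in the same way, and their shares stand beside 0.946% of protein-coding genes with a peak and 35.7% with a pooled candidate. Factors of P-bodies, the sites of messenger RNA decay, had a thresholded peak at 2 of 29 genes (6.90%, exact 95% interval 0.846 to 22.8), ifet-1 and nhl-2, and a candidate at 19 (65.5%), with a median best rank of 2988. Both of these summits lay nearer to other starts. At ifet-1, a repressor that binds eIF4E, the summit lay 513 bp upstream but 255 bp upstream of the ribosomal protein gene rps-1 and 6 bp upstream of the non-coding gene F56F3.11. The ifet-1 peak ranked 1557 in replicate 1, outside the best regions, and 58 in replicate 2. At nhl-2, a TRIM-NHL family gene, the summit lay 849 bp upstream but 16 bp inside the non-coding gene F26F4.14 (replicate ranks 166 and 51). P granule proteins of the germline had a peak at 0 of 20 genes (exact 95% upper limit 16.8%), which is near the share over all genes, and 4 of the 20 (20.0%) had a candidate, the best of them at rank 12976. Of 15 genes for stress signalling, 7 (46.7%) had a candidate and 1 had a peak (6.67%, 0.169 to 31.9), pek-1, the worm PERK kinase (430 bp upstream, signal 32.1, ranks 218, 242 and 114). Of 56 genes named pqn, 22 (39.3%) had a candidate and 3 had a peak. Without pqn-59 it was 2 of 55 (3.64%, 0.443 to 12.5), pqn-21 (46 bp upstream, signal 35.4, replicate ranks 599 and 133) and pqn-70 (193 bp upstream, signal 31.4, replicate ranks 138 and 1434). Without replicate 2 the P-body list had 4 genes in the best regions, without replicate 1 it had 3, and the pqn genes numbered 2 and 1 in the same order. Of these P-body genes only nhl-2 was in the best regions of both replicates, and no pqn gene was. The lists were not tested against the other genes, and these shares describe the named genes only.

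**Figure D3:**
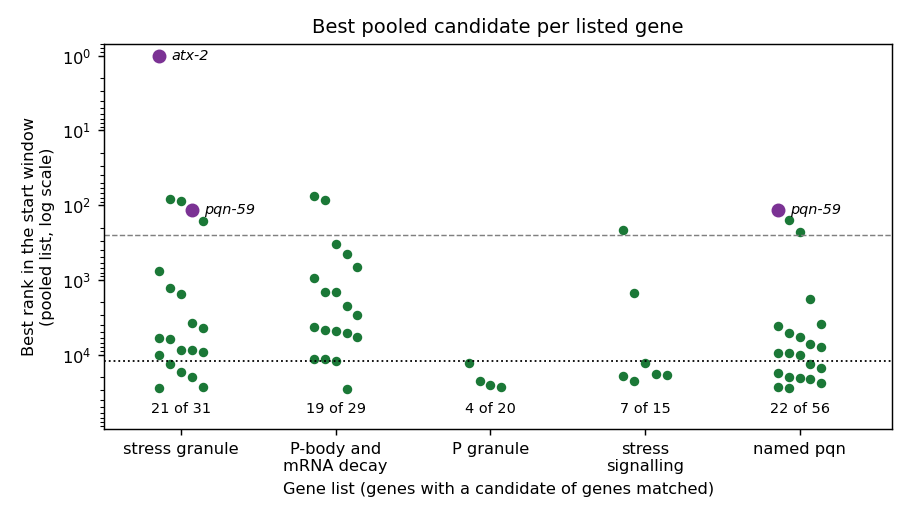
Best rank of a pooled candidate in the start window of each listed gene (y axis, log scale, best at the top) by gene list (x axis), with atx-2 and pqn-59 in purple and the others in green. The dashed line is rank 249, the dotted line the median of 12053 over all protein-coding genes with a candidate, and the counts give genes with a candidate of genes matched. The atx-2 gene stands far above every other listed gene, and 4 of 20 P granule genes have a candidate at all, none of them above the dotted line.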

How the data were processed

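The authors deposited the regions in narrowPeak form on ce11, without headers. The accompanying deposited descriptions state that candidates came from the alignments of 1 replicate, or of both, with a control, and that the thresholded peaks came from an irreproducible discovery rate (IDR) step across lists. The sources used here do not give the aligner, the peak caller or the threshold. The deposited signal (column 7, scale not stated) ranked regions within each list. The deposited −log10 q value (column 9) is capped, with 203 of the 249 thresholded peaks at its highest value of 2.61, and served as an alternative. Read depth is unknown.

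Summits (column 2 plus column 10, written 1-based) were compared with Ensembl release 115, and 19973 protein-coding genes on the nuclear chromosomes were the background. Start codons of all 3 genes read as ATG in the genome used. An overlap needed 1 bp. Intervals are exact Clopper-Pearson at 95%, cover counts of genes only and not the spread between replicates. What was separate about the replicates is not stated. The code, in Python 3.11.15 with pandas 2.3.3 and SciPy 1.17.1, was checked on made-up regions with known answers.

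The 3 genes, the gene lists and the motifs were chosen with earlier results of these data known. Genes named beyond them are those in the start window of a peak or next to it, listed genes with a peak, and the 3 genes per peak with the most similar ranks. Y48G10A.3, tasp-1, cul-1, ctf-18, R119.3, sqd-1, pab-1, pab-2, tiar-1 and the genes with no region were named after their values were seen. The names tiar-3, ntl-1 and zsp-1 did not match the annotation. The ce10 lists were not used. The result for 1 listed gene with a peak is not reported here.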

Additional observations from a re-analysis of the deposited data

How the results depend on the processing

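Results were recomputed with alternatives that each changed 1 choice, and 51 of 79 recomputed values were counted as unchanged. A count had to stay within 1.5 times the reported one, and a rank or distance within a limit based on the spread between replicates. For distances that limit was stricter than the full gap between replicate summits. At atx-2, -63 bp against -80 bp was counted as moved with a gap of 18 bp. At pqn-59, 162 bp against 164 bp was counted as moved with a gap of 2 bp. Ranked by −log10 q, where capped values tie at rank 1, atx-2 rose from rank 3 to 1 in replicate 2. By the same measure pqn-59 went from 116 to 1 (pooled), 74 to 1 (replicate 1) and 610 to 598 (replicate 2). Among candidates in coding start windows alone it went to 73, 41 and 238. All of these pqn-59 ranks were counted as unchanged, and each shift was smaller than the gap between its replicate ranks of 74 and 610. That gap is wide, so this count does not show that the pqn-59 rank was stable. With 1 replicate left out, 1 to 2 of the 3 genes were among the best regions (1 from replicate 2 alone, where pqn-59 was lost), and the distance from the start ran from -81 to -63 bp at atx-2 and from 162 to 164 bp at pqn-59. The midpoint of the atx-2 region lay at -52 bp. Regions with −log10 q of at least 2 numbered 1 around atx-2 in each candidate list, 1 (pooled), 1 (replicate 1) and 0 (replicate 2) around pqn-59, and 0 around gtbp-1. Around gtbp-1, a distance of 1 kb gave 1, 0 and 0 regions in these lists and 5 kb gave 4, 5 and 4. With a window of 500 bp upstream to 100 bp downstream, 3 stress granule genes and 0 P-body genes had a peak, and pqn-59 and larp-1 were lost. Keeping the best 124 peaks left 0 stress signalling and 1 pqn gene. With 1 replicate left out, genes with a peak numbered 3 to 4 for stress granules, 3 to 4 for P-bodies, 0 for P granules, 1 for stress signalling and 1 to 2 for pqn genes. The P-body genes counted differed between the replicates except for nhl-2, and the pqn genes differed throughout. A window of 50 bp each side left 3 of 5 motif matches at pqn-59. No paired analysis was possible because all samples form 1 group. Depth was unknown, so the precision of a signal is unknown too.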
